A study of Rattus norvegicus with 12 samples.

Results

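Cholesterol synthesis, uptake and export genes were followed in the right lungs of 12 rats, through 8 genes: the enzymes Hmgcs1, Sqle and Cyp51, the regulators Srebf1, Srebf2, Insig1 and Insig2, and the exporter Abca1. Their measurements were all the probe sets that the array's annotation assigns to a single one of these genes, which gave 14 of the 31099 probe sets and covered 7 of the 8 genes, out of 14217 genes on the array. Hmgcs1 was not analysed here, because no probe set was assigned to it, alone or with other genes. The rats formed 4 groups of 3 arrays each, 1 animal an array: Dahl salt-sensitive (SS) rats with HTV ventilation, SS control rats, Brown Norway (BN) rats with HTV ventilation and BN control rats. SS and BN are inbred strains, SS being a model of salt-induced hypertension. The labels do not spell out HTV, describe all 12 lungs as exposed to room air, and do not say how the controls were ventilated or name age, sex or batch. All animals weighed 250 to 350 g, and the vessels of each lung were flushed with saline before freezing, so the tissue is whole lung with most blood removed from the vessels.

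Mammalian cells keep their cholesterol in balance through a sensor in the endoplasmic reticulum. When sterols run low, Scap carries the SREBP transcription factors, encoded by Srebf1 and Srebf2, to the Golgi, where they are cut and released to switch on the genes of cholesterol synthesis and of low-density lipoprotein uptake, and the Insig proteins hold Scap back when sterols are plentiful. Oxidised sterols act in the opposite sense through the LXR receptors, which raise the exporter Abca1 and Mylip, a ubiquitin ligase that limits lipoprotein uptake. In the lung, cholesterol is a component of surfactant made by type 2 cells, and alveolar macrophages take it up and export it.

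Promoter windows of the genes on which the comparisons below turn are shown first, as RefSeq gives them for the GRCr8 assembly, which comes from a BN rat. RefSeq windows were matched by symbol for 7 of the 8 genes, 8 windows in all, since Srebf1 has a pair of them, and Sqle was not among those matched. Each window runs from 250 bases before to 50 bases after the annotated start, is written 5′ to 3′ on the gene's strand, and carries in capitals every match on either strand to 4 short motifs: the sterol element TCACNCCAC, its core CACNCCA, the NF-Y box CCAAT and the E-box CACGTG. Insig1 and Insig2 are shown because they held the only passing tests among the 8 genes, and Cyp51 and Abca1 because their differences with HTV in BN lungs, which did not pass, had opposite signs. The positions are chr4:8057720-8058019 on the minus strand for Insig1, chr13:35040049-35040348 on the minus strand for Insig2, chr4:30991443-30991742 on the plus strand for Cyp51, and chr5:72596424-72596723 on the minus strand for Abca1.
Insig1: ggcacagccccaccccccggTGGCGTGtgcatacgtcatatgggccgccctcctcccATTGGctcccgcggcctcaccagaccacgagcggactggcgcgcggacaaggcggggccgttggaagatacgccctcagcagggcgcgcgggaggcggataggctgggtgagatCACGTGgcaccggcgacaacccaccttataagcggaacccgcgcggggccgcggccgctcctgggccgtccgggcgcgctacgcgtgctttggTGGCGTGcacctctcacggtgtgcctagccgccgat
Insig2: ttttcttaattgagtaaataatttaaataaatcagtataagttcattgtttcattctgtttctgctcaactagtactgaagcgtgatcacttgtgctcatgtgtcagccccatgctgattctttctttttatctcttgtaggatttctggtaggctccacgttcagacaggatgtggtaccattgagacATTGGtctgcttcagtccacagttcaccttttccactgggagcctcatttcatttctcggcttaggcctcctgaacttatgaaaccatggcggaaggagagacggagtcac
Cyp51: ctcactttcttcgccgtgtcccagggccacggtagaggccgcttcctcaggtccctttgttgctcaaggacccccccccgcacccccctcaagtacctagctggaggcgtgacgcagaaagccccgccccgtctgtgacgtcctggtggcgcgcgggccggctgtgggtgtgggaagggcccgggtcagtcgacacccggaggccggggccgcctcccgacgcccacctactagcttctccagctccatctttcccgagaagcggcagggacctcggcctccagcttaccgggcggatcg
Abca1: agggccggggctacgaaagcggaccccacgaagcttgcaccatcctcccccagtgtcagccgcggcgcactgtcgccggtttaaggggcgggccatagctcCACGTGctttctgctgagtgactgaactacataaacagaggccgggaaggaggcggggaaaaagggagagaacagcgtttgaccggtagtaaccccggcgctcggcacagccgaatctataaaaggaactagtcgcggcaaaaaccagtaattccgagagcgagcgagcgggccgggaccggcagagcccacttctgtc

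The Insig1 window held 2 copies of the sterol core, at positions -230 and 15 from the start, with a NF-Y box at -193 and an E-box at -79, and no matches overlapped. The Insig2 window held 1 NF-Y box at -61, the Abca1 window 1 E-box at -149, and the Cyp51 window none of the 4 motifs. Of the windows not printed, that of Srebf2 held 1 sterol core at -155 and 1 NF-Y box at -129, that of Hmgcs1 held 2 NF-Y boxes, and those of Srebf1 held 2 and 1. Such matches are common: among 33469 windows of the same length 17.2% held the core, 37.5% the NF-Y box, 6.42% the E-box and 1.12% the full sterol element, which was in none of the 8 windows. A match describes letters, not a bound site, and these windows come from 1 strain.

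Values are MAS5 intensities, a linear brightness per probe set that the authors scaled on each array. They show how one probe set varies across arrays, and levels of different probe sets are not set against each other. Tests were made on log2(intensity + 16) with limma, in 1 model of the 4 group means over all 12 arrays. Each difference is given on that scale with its standard error (SE), a scale that understates changes of dim probe sets, and a probe set passed when its p-value, adjusted by Benjamini-Hochberg over the 18626 probe sets with a mean intensity of at least 43.6, was under 0.05. Of the 14 probe sets 13 were bright enough, and the Srebf2 probe set 1377489_at, at 4.8 to 22.4 over the 12 arrays, was not. With n = 3 in every group, precision is limited by the number of arrays.

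Lung identity was clear on every array. Sftpc, the surfactant protein of type 2 cells, had 2920 to 4581 on the 12 arrays, and the summed type 2 list (9 genes) had 18810 to 24452 in SS HTV, 19707 to 24785 in SS control, 21885 to 28981 in BN HTV and 22258 to 25386 in BN control lungs. Of 7 tested neutrophil markers 5 rose with HTV in SS lungs, where they summed to 5364 to 8106 in HTV against 1401 to 2349 in control lungs. In BN lungs 6 of 7 rose, with sums of 2859 to 8504 in HTV against 922 to 1615 in control lungs, and none of the 7 was under 1 on any array. S100a8, a calcium-binding protein of neutrophils, averaged 2190 in SS HTV against 477 in SS control lungs, and 2006 in BN HTV against 255 in BN control lungs. Of the 7 tested T and NK cell markers 2 fell in SS and 1 in BN lungs, and 0 tested markers of type 2 cells, macrophages, endothelium, airway epithelium, adipocytes or cardiac muscle passed with HTV in either strain (limma). Of 5 tested liver markers 1 rose in SS lungs, and of 6 fibroblast markers 1 fell in BN lungs. With HTV 8.06% of all tested probe sets passed in SS and 5.86% in BN lungs. Between strains, cardiac muscle markers, 5 of them tested, summed to 78.5 to 545 in SS HTV against 479 to 2292 in BN HTV lungs and to 65.1 to 307 in SS control against 718 to 1424 in BN control lungs, and 2 of them in HTV and 5 in control lungs were lower in SS. The level of 1 of these 5 was under 1 on at least 1 array. The 6 fibroblast markers summed to 6813 to 7353 in SS HTV against 3891 to 4567 in BN HTV lungs and to 6663 to 7326 in SS control against 4228 to 5584 in BN control lungs, with 3 higher in SS in each condition. The 7 endothelial markers summed to 7062 to 8515 in SS HTV against 9304 to 9983 in BN HTV lungs and to 7269 to 7620 in SS control against 9543 to 10107 in BN control lungs, with 2 lower in SS in each condition. Pecam1 of endothelium had 435 to 532 in SS HTV against 759 to 817 in BN HTV lungs, and Cd68 of macrophages 346 to 476 in SS HTV against 214 to 307 in BN HTV lungs, with no overlap between strains. Of the T and NK cell markers 1 in HTV and 3 in control lungs were higher in SS, with sums of 763 to 773 in SS HTV against 532 to 673 in BN HTV lungs and of 946 to 1363 in SS control against 744 to 816 in BN control lungs. Of 6 tested macrophage markers 1 was higher in SS in each condition. Of 2 tested adipocyte markers 1 was higher in SS HTV lungs and 0 differed in control lungs. All 6 adipocyte markers with a probe set summed to 210 to 332 in SS HTV against 190 to 209 in BN HTV lungs. In control lungs they summed to 136 to 188 in SS against 180 to 288 in BN lungs. Of 5 tested liver markers 1 was higher in SS HTV lungs, and in SS control lungs 2 were higher and 1 lower. Between strains 8.37% of all tested probe sets passed in HTV and 12.3% in control lungs. A single passing marker of a list therefore says little about its cell type. SS control 3 stood apart, with the lowest mean correlation to its own group (0.949), and BN HTV 2 stood apart at the sterol genes.

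HTV changed none of the 13 probe sets past the test in either strain. In SS lungs 0 of 13 passed with limma and 0 had an unadjusted p under 0.05, where 8.06% and 25.3% of all tested probe sets did. Their differences ran from -0.40 to 0.25 with a median of -0.03, and the median of all tested probe sets was -0.01. In BN lungs 0 of 13 passed and 4 had an unadjusted p under 0.05, against 5.86% and 19.9% of all probe sets. Those 4 were both probe sets of Cyp51, which were higher with HTV, and 2 of the 4 probe sets of Abca1, which were lower. Differences in BN lungs ran from -0.47 to 0.56 with a median of -0.02, against -0.03 over all probe sets. Taking the mean of both strains, 0 of 13 passed and 4 had an unadjusted p under 0.05, where the shares of all probe sets were 15.8% and 30.2%.

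**Figure D1:**
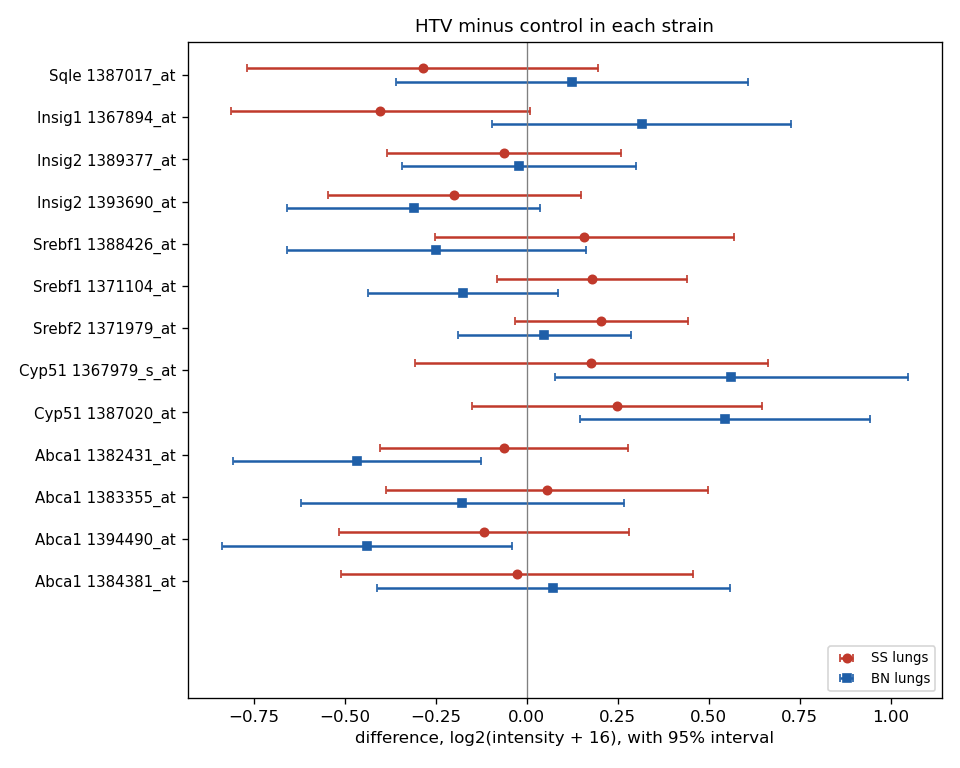
HTV minus control for the 13 tested probe sets, as differences of log2(intensity + 16) with 95% intervals, in SS lungs (red circles) and BN lungs (blue squares). In BN lungs the intervals of both Cyp51 probe sets lie above 0 and those of Abca1 1382431_at and 1394490_at below it, and no probe set passed the adjusted test.

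Cyp51, the lanosterol demethylase of the later pathway, separated further with HTV in BN lungs than Sqle, the other enzyme measured among the 8 genes. Its brighter probe set, 1367979_s_at, had 593, 521 and 458 in SS HTV against 440, 446 and 494 in SS control lungs, and 644, 1349 and 638 in BN HTV against 476, 611 and 580 in BN control lungs. The SS groups overlap, whereas every BN HTV array lies above every BN control array, and BN HTV 2, at 1349, stands far above the other 11 arrays, which reach 644. The difference with HTV was 0.56 ± 0.22 in BN lungs (SE; limma, adjusted p = 0.181) and 0.18 ± 0.22 in SS lungs (adjusted p = 0.656). Without BN HTV 2 the BN difference was 0.21. The second probe set, 1387020_at, gave 0.54 ± 0.18 in BN lungs (adjusted p = 0.110) and 0.25 ± 0.18 in SS lungs, and its mean over both strains, 0.40 ± 0.13, came closest to passing (limma, adjusted p = 0.0558). In the second probe set the BN groups overlap, BN HTV 3 at 148 lying below BN control 3 at 152. Both probe sets share the gene and are not separate evidence of a change.

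Sqle, the squalene epoxidase of sterol synthesis, showed no such separation. It had 153, 128 and 141 in SS HTV against 121, 203 and 214 in SS control lungs, and 174, 284 and 149 in BN HTV against 176, 202 and 157 in BN control lungs. The arrays of the groups overlap in both strains, and BN HTV 2 is again the highest of the 12. The differences were -0.29 ± 0.22 in SS lungs (95% interval -0.77 to 0.20) and 0.12 ± 0.22 in BN lungs (-0.36 to 0.61).

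**Figure D2:**
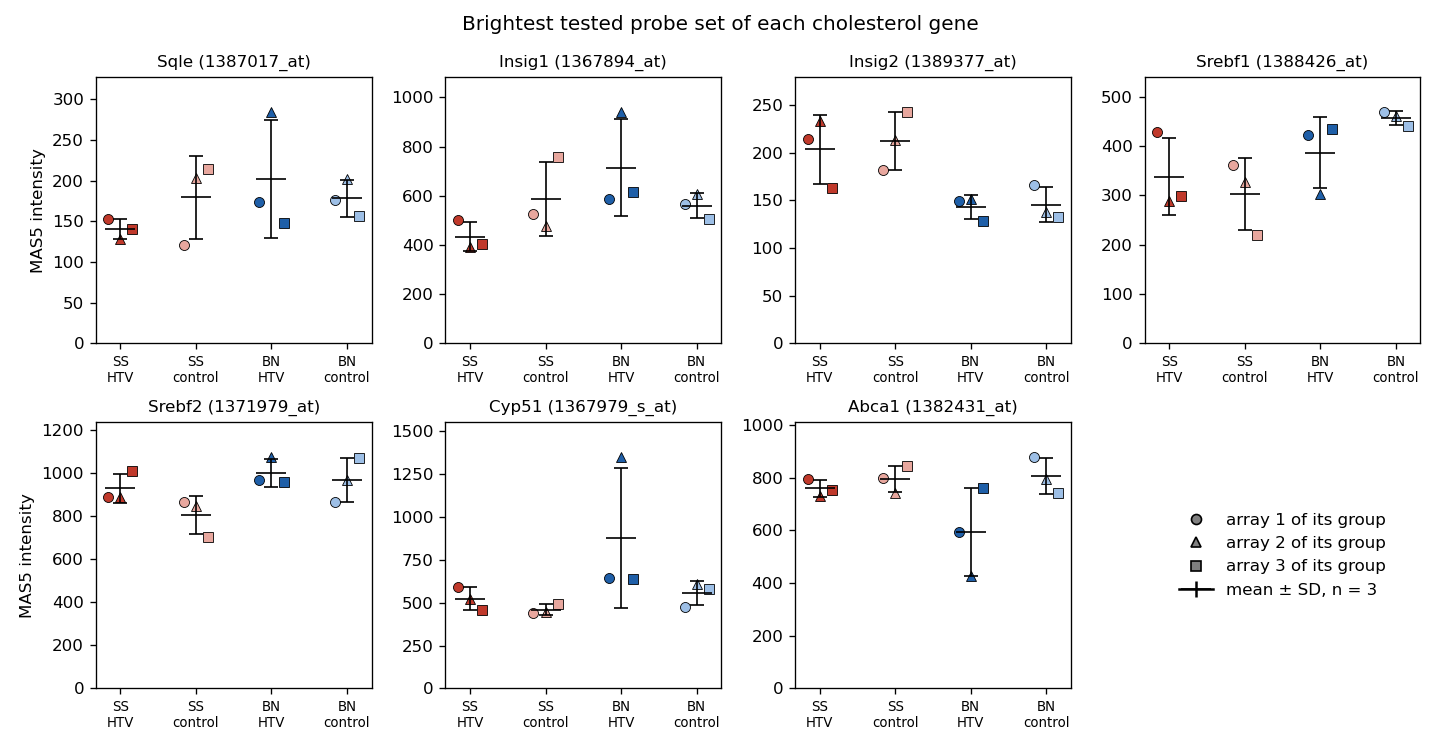
MAS5 intensity on a linear axis from 0, on each of the 12 arrays, for the brightest tested probe set of the 7 measured genes, with group mean ± SD (n = 3). The triangle of the BN HTV group, array 2, is the highest value for Sqle, Insig1 and Cyp51 and the lowest for Abca1.

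Of the transcription factor genes, Srebf2, whose product drives the cholesterol enzymes, varied little between groups. Probe set 1371979_at had 891, 891 and 1010 in SS HTV against 867, 849 and 707 in SS control lungs, and 970, 1077 and 960 in BN HTV against 869, 971 and 1072 in BN control lungs. All SS HTV arrays lie above all SS control arrays, a separation that 29.8% of all probe sets also had in that comparison, and the difference of 0.20 ± 0.11 did not pass (limma, adjusted p = 0.266). In BN lungs it was 0.05 ± 0.11, a value whose sign turned with the normalization.

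Srebf1, whose products drive fatty acid as well as sterol genes, was lower in SS than in BN control lungs. Neither of its probe sets passed there (limma, adjusted p = 0.0568 and 0.111). In HTV lungs the SS minus BN values of Srebf1 were -0.19 ± 0.19 and 0.05 ± 0.12, with overlap. Its brighter probe set, 1388426_at, had 428, 288 and 299 in SS HTV against 362, 327 and 221 in SS control lungs, and 423, 304 and 434 in BN HTV against 469, 461 and 442 in BN control lungs. All BN control arrays exceed all arrays of the other groups, and both Srebf1 probe sets separate BN HTV from BN control lungs, at -0.25 ± 0.19 and -0.17 ± 0.12 (limma, adjusted p = 0.524 and 0.469). With HTV in BN lungs 4 of the 13 probe sets did not overlap between groups (1 higher, 3 lower), against 26.6% of all probe sets.

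The Insig genes, which code for the brakes on SREBP release, held both passing tests, and both were differences between strains. Insig1, itself a target of SREBP, had 503, 393 and 406 in SS HTV against 525, 478 and 757 in SS control lungs, and 587, 941 and 615 in BN HTV against 567, 605 and 505 in BN control lungs. All SS HTV arrays lie below all BN HTV arrays, whereas the control lungs of the strains overlap. In HTV lungs Insig1 was lower in SS than in BN, with a difference of -0.67 ± 0.19 (limma, adjusted p = 0.0450) or a 0.63-fold level, and in control lungs the difference was 0.04 ± 0.19. Ordered by mean, Insig1 had 714 in BN HTV, 586 in SS control, 559 in BN control and 434 in SS HTV lungs, and neighbouring groups overlap apart from BN control and SS HTV.

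The call on Insig1 is narrow. It was -0.46 without BN HTV 2 (limma, adjusted p = 0.171) and -0.40 with an RNA integrity measure as a covariate (adjusted p = 0.289). Leaving out any 1 of 8 of the 12 arrays ended the call, among them SS HTV 2, SS HTV 3 and all BN controls, with adjusted p of 0.0535 to 0.171. That measure, the log2 ratio of the 5′ to the 3′ beta-actin probe sets, was -0.70 ± 0.31 in SS HTV and -1.26 ± 0.10 in BN HTV arrays (SD), and -0.72 ± 0.62 in SS control and -1.10 ± 0.32 in BN control arrays. In HTV arrays the ratio ran from -1.02 to -0.40 in SS and from -1.36 to -1.16 in BN, without overlap. Strain and RNA integrity therefore cannot be told apart in HTV lungs, with or without the covariate. The part of RNA integrity in the other strain differences was not tested beyond that covariate. HTV itself gave Insig1 a difference of -0.40 ± 0.19 in SS lungs (adjusted p = 0.207) and 0.32 ± 0.19 in BN lungs (adjusted p = 0.393). The difference between these effects was -0.72 ± 0.27 (limma, adjusted p = 0.576). It was the only one of 13 with an unadjusted p under 0.05, where 8.31% of all probe sets were, and 0% of all probe sets passed the adjusted test of that difference.

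Insig2, which is not under SREBP control in the same way and in liver is lowered by insulin, was higher in SS lungs. Probe set 1389377_at had 214, 233 and 163 in SS HTV against 150, 151 and 128 in BN HTV lungs, and 182, 213 and 243 in SS control against 167, 138 and 133 in BN control lungs. SS arrays lie above BN arrays of the same condition in both cases, and HTV and control arrays overlap within each strain. The strains differed by 0.50 ± 0.15 in control lungs (limma, adjusted p = 0.0451), a 1.41-fold level, and by 0.45 ± 0.15 in HTV lungs (adjusted p = 0.0800). The dimmer probe set, 1393690_at, ran the same way, at 0.35 ± 0.16 in control and 0.46 ± 0.16 in HTV lungs, and did not pass (adjusted p = 0.166 and 0.0960). The control call was kept with the integrity covariate, at 0.56 (adjusted p = 0.0420), and lost without SS control 3, at 0.40 (adjusted p = 0.115). It was also lost without SS control 2, BN control 2, BN control 3, SS HTV 1, BN HTV 1 or BN HTV 2, with adjusted p up to 0.155.

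These calls are about as frequent as among all probe sets. Between strains 1 of 13 passed in HTV lungs, against 8.37% of all tested probe sets, and 1 of 13 in control lungs, against 12.3%. Unadjusted, 5 and 6 of 13 had p under 0.05, where 23.4% and 29% of all probe sets did. Arrays did not overlap for 4 of 13 in HTV lungs (2 higher and 2 lower in SS) and for 6 of 13 in control lungs (2 higher and 4 lower), where 29.4% and 33.2% of all probe sets separated. The 4 lower in SS control lungs were both Srebf1 probe sets, at -0.60 ± 0.19 (limma, adjusted p = 0.0568) and -0.31 ± 0.12 (adjusted p = 0.111), Srebf2 at -0.26 ± 0.11 (adjusted p = 0.136) and Abca1 1383355_at at -0.59 ± 0.21 (adjusted p = 0.0760).

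**Figure D3:**
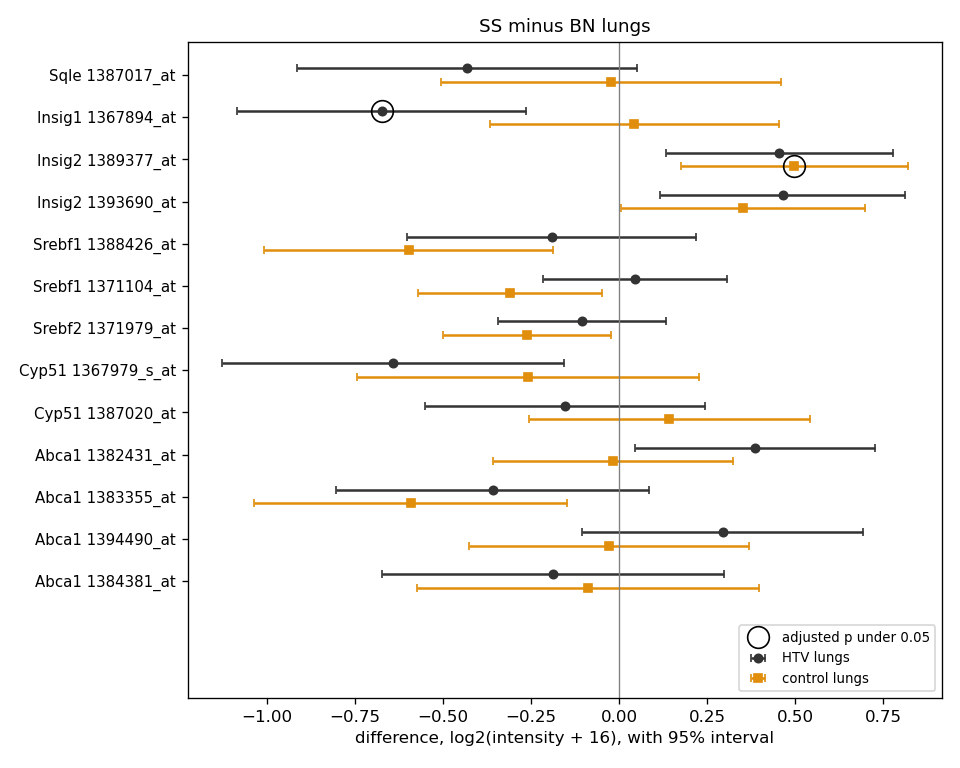
SS minus BN for the 13 tested probe sets, as differences of log2(intensity + 16) with 95% intervals, in HTV lungs (black circles) and control lungs (orange squares). Open rings mark the 2 tests with an adjusted p under 0.05, Insig1 in HTV lungs and Insig2 1389377_at in control lungs.

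Abca1, which loads cellular cholesterol onto apolipoproteins, was measured by 4 probe sets that did not move as one. Probe set 1382431_at had 794, 731 and 755 in SS HTV against 798, 743 and 844 in SS control lungs, and 595, 425 and 759 in BN HTV against 879, 795 and 743 in BN control lungs. The SS groups overlap closely, and in BN lungs 2 of 3 HTV arrays lie below every control array, BN HTV 2 being the lowest of the 12. The difference was -0.47 ± 0.16 in BN lungs (limma, adjusted p = 0.110) and -0.06 ± 0.16 in SS lungs, and the difference between these effects was 0.40 ± 0.22 (adjusted p = 0.648). Without BN HTV 2 the BN value was -0.25, and without BN HTV 3 it was -0.66 and passed (adjusted p = 0.0148).

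The other Abca1 probe sets divide. Probe set 1394490_at correlated with 1382431_at at r = 0.87 over the 12 arrays and gave -0.44 ± 0.18 in BN lungs (limma, adjusted p = 0.202). Probe set 1383355_at correlated with it at only 0.11 but with Srebf1 1388426_at at 0.92, and was lower in SS than in BN control lungs as given above. Probe set 1384381_at, the dimmest at 35.9 to 87.8, gave 0.07 ± 0.22 in BN lungs. Which transcript forms these probe sets read is not given in the files, and correlations over 12 arrays that differ in strain and HTV are descriptions.

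Several correlations among Sqle, Insig1, Cyp51 and Abca1 1382431_at were nearer 0 without BN HTV 2, and those of the Insig2 and Srebf1 pairs were not. Across the 12 arrays Sqle and Insig1 correlated at r = 0.79 and Insig1 and Cyp51 1367979_s_at at 0.71, and Cyp51 and Abca1 1382431_at at -0.87. Without BN HTV 2 these values were 0.62, 0.31 and -0.44. The pair of Cyp51 probe sets correlated at 0.73 with all arrays and 0.37 without that array, the Insig2 pair at 0.61 and 0.62, and the Srebf1 pair at 0.68 and 0.70. Srebf1 1388426_at and Cyp51 1367979_s_at correlated more without it, at 0.54 against 0.03 with all arrays.

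That array was also looked at across the whole pathway, a choice made after its values were seen. Of 22 cholesterol synthesis enzymes 17 were tested, and BN HTV 2 was the highest of 12 arrays for 11 of them. It was the highest for 12.4% of all 10555 tested genes. In the lists described below it was the highest for 5 of 12 uptake and storage and 5 of 13 fatty acid synthesis genes. For SREBP control this was 2 of 11 and for LXR and efflux 0 of 12. Sqle and Cyp51, where the array was first seen to stand out, are among the 11 enzymes, so the enzyme count is partly set by the choice. The median deviation of the 17 enzymes from each gene's mean was 0.56 on the log2 scale in BN HTV 2. On the other 11 arrays it was -0.24 to 0.04. Lss, the lanosterol synthase, had 401 there against 129 to 274 on the others, Msmo1, a sterol methyl oxidase, 873 against 285 to 547, Idi1, the isopentenyl diphosphate isomerase, 489 against 183 to 414, and Fdps, the farnesyl diphosphate synthase, 817 against 314 to 610. The 6 enzymes not highest there were Ggps1, Fdft1, Lbr, Nsdhl, Ebp and Sc5d. BN HTV 1 and BN HTV 3 had medians of 0.02 and -0.15, so the pattern is of 1 animal, with no replicate check. Its neutrophil sum of 8082 lay within its group's range of 2859 to 8504 and its beta-actin ratio of -1.26 was the group's middle value, whereas its type 2 cell sum of 28981 and its cardiac muscle sum of 2292 were the highest of the 12 arrays. Its airway epithelium sum of 5622 was also the highest and its T and NK cell sum of 532 the lowest. The part of these in the pattern was not tested.

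**Figure D4:**
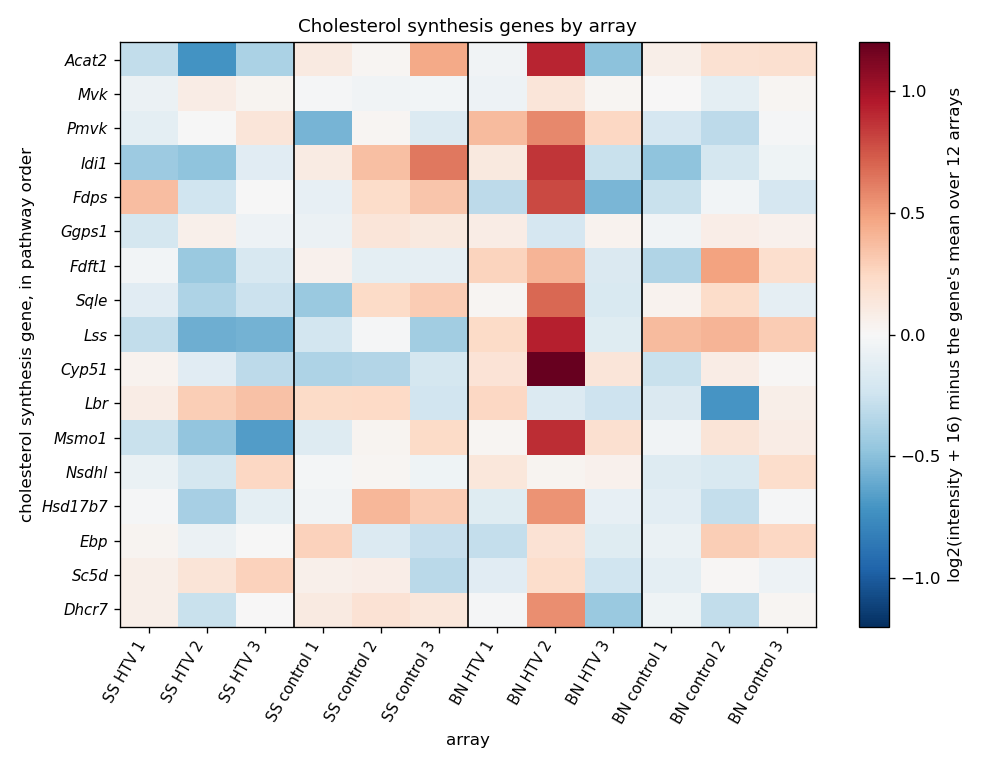
Deviation of log2(intensity + 16) from each gene's mean over 12 arrays (red higher, blue lower) for 17 tested cholesterol synthesis enzymes in pathway order. The BN HTV 2 column is the highest in 11 of 17 rows, and the medians of BN HTV 1 and BN HTV 3 are 0.02 and -0.15.

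The synthesis enzymes taken as a list changed little with HTV. In SS lungs 0 of 17 passed with limma (3 lower and 0 higher at an unadjusted p under 0.05), with a median of -0.13 against -0.01 over all genes, where 8.06% of all probe sets passed and 25.3% had such a p. In BN lungs 1 rose, Pmvk, the phosphomevalonate kinase, by 0.58 ± 0.16 (limma, adjusted p = 0.0448), with a list median of 0.12 against -0.03, where 5.86% of all probe sets passed. At an unadjusted p under 0.05, 2 of 17 were higher and 0 lower in BN lungs, against 19.9% of all probe sets. Pmvk had 151, 164 and 184 in SS HTV against 107, 169 and 146 in SS control lungs, and 220, 254 and 199 in BN HTV against 141, 130 and 163 in BN control lungs. The call in BN lungs was lost without BN HTV 2, at 0.49 (adjusted p = 0.158), and without any 1 of 7 others, with adjusted p from 0.0549.

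Between strains 2 of 17 enzymes were lower in SS than in BN HTV lungs and 0 passed in control lungs with limma, where 8.37% and 12.3% of all probe sets passed. At an unadjusted p under 0.05 there were 6 in HTV lungs, all lower in SS, against 23.4% of all probe sets. In control lungs there were 2, 1 higher and 1 lower, against 29%. Over the 25 other settings the count past the adjusted test in HTV lungs was 0 to 5. Msmo1 had 383, 329 and 285 in SS HTV against 471, 873 and 534 in BN HTV lungs, and the difference was -0.84 ± 0.19 (limma, adjusted p = 0.0161). The groups do not overlap, and it passed also without BN HTV 2, at -0.58 (adjusted p = 0.0403), but not without SS HTV 2 (adjusted p = 0.0575) or SS HTV 3 (adjusted p = 0.0756), nor with the integrity covariate, at -0.66 (adjusted p = 0.122). Lss had 162, 129 and 132 in SS HTV against 241, 401 and 181 in BN HTV lungs. The difference was -0.82 ± 0.21 (limma, adjusted p = 0.0299). Without BN HTV 2 it was -0.53 and did not pass (adjusted p = 0.0843). The call was also lost without BN HTV 1, SS HTV 2 or SS HTV 3. With the integrity covariate the difference was -0.90 and did not pass (limma, adjusted p = 0.0823). In control lungs Lss was also lower in SS, at 172, 200 and 148 against 268, 274 and 253 in BN lungs, without overlap. That difference was -0.58 ± 0.21 and did not pass (limma, adjusted p = 0.0910). The difference between HTV effects on Lss was -0.24 ± 0.30. The list median was -0.28 in HTV lungs, with 13 of 17 enzymes lower in SS. In control lungs it was 0.00, with 8 of 17 lower. Over all genes these medians were 0.01 and -0.01. By array, the list's median deviation was -0.07, -0.24 and -0.06 in SS HTV and 0.02, 0.56 and -0.15 in BN HTV lungs. BN HTV 2 thus weighs on the HTV list median, whose value without that array was not computed. None of the 17 passed the test of the difference between HTV effects in limma, where 3 had an unadjusted p under 0.05, against 0% and 8.31% of all probe sets.

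Among 11 tested genes of SREBP control 1 rose with HTV in SS lungs, where 8.06% of all probe sets passed. Trib1, a pseudokinase scaffold for a ubiquitin ligase that in liver restrains lipid synthesis, had 115, 89.4 and 174 in SS HTV against 69.4, 56.4 and 46.5 in SS control lungs, and 135, 105 and 125 in BN HTV against 79, 57.3 and 80.9 in BN control lungs. HTV arrays lie above control arrays in both strains. Trib1 rose by 0.92 ± 0.20 in SS lungs (limma, adjusted p = 0.0163) and by 0.78 ± 0.14 in the mean of both strains (adjusted p = 0.00268), and the BN value was 0.64 ± 0.20 (adjusted p = 0.0901). The SS call was lost without SS HTV 3, at 0.69 (adjusted p = 0.0654), and without SS control 3, at 0.81 (adjusted p = 0.0550).

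Of 12 tested uptake and storage genes (17 listed) 4 passed in the mean of both strains, where 15.8% of all probe sets did, and 3 to 4 passed in the 24 other settings. They were Mylip, which fell, and Soat1, Olr1 and Stard4, which rose. Mylip had 268, 287 and 252 in SS HTV against 474, 488 and 424 in SS control lungs, and 202, 154 and 226 in BN HTV against 368, 314 and 297 in BN control lungs. Every HTV array lies below every control array of its strain. Mylip fell by 0.75 ± 0.13 on the log2 scale in SS lungs (limma, adjusted p = 0.00484) and by 0.71 ± 0.13 in BN lungs (adjusted p = 0.00729), levels of 0.60-fold and 0.61-fold. The difference between strains in this effect was -0.03 ± 0.19. Both falls passed in each of the 25 other settings tried, with values from -0.81 to -0.66 in SS and from -0.82 to -0.57 in BN lungs.

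Soat1, the acyltransferase that makes cholesteryl esters for storage, had 351, 418 and 421 in SS HTV against 357, 335 and 305 in SS control lungs, and 450, 518 and 442 in BN HTV against 288, 303 and 279 in BN control lungs. The SS groups overlap at 1 array and the BN groups are far apart. It rose by 0.67 ± 0.11 in BN lungs (limma, adjusted p = 0.00300), also in each of 25 other settings, and its SS value was 0.24 ± 0.11 (adjusted p = 0.184). The difference between strains in this effect, -0.43 ± 0.15, did not pass (adjusted p = 0.576).

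Olr1, a receptor for oxidised low-density lipoprotein, had 327, 125 and 512 in SS HTV against 107, 99.1 and 52.0 in SS control lungs, and 251, 153 and 65.6 in BN HTV against 68.7, 71.9 and 63.4 in BN control lungs. HTV arrays are above control arrays in SS lungs, while 1 BN HTV array lies among the BN controls. Olr1 rose by 1.58 ± 0.45 in SS lungs (limma, adjusted p = 0.0469), a call lost without SS HTV 3, at 1.16 (adjusted p = 0.174), and without any 1 of 8 other arrays, and by 1.23 ± 0.32 in the mean of both strains (adjusted p = 0.0182). Stard4, a carrier of cholesterol between membranes, rose by 0.35 ± 0.09 in the mean of both strains (adjusted p = 0.0197), a call lost without SS control 2, BN control 1 or SS HTV 3 (adjusted p up to 0.0527). Neutrophil marker sums, given above, were also higher with HTV. In whole lung, a change in the number of cells of a type and a change in RNA per cell cannot be told apart, and the part of neutrophils in these changes was not tested.

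**Figure D5:**
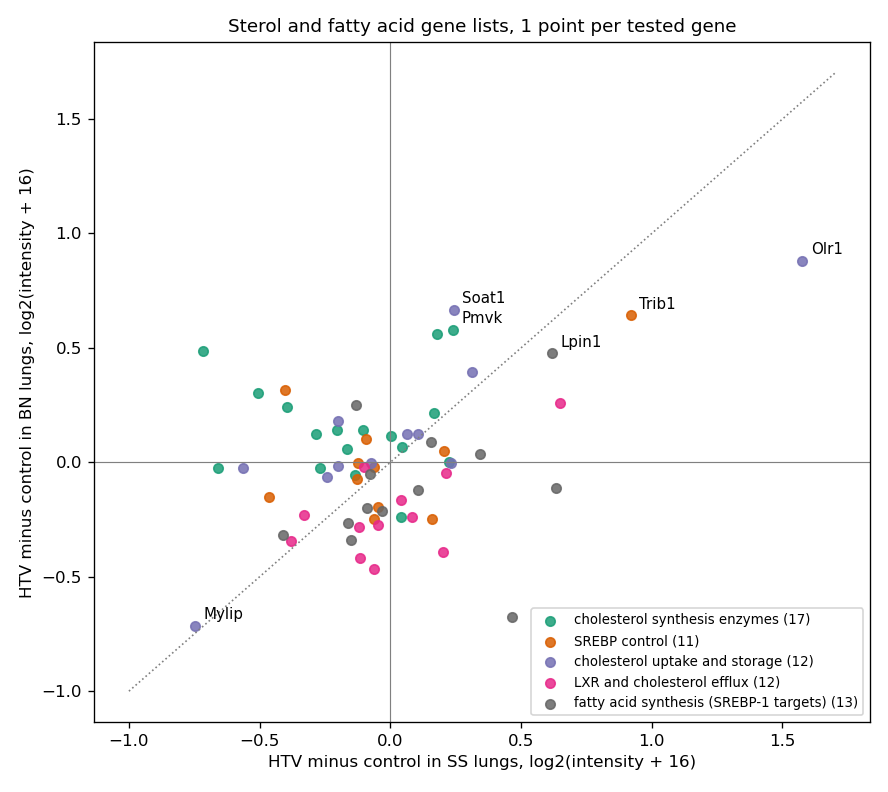
HTV minus control in SS lungs (x) and in BN lungs (y), on the log2(intensity + 16) scale, for the tested genes of 5 sterol and fatty acid lists, 1 point a gene, with a dotted line of equal change. Named points passed the test in at least 1 strain: Mylip lies near the line below 0 in both, Lpin1, Trib1 and Olr1 above 0 in both, and Soat1 and Pmvk higher in BN.

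The LXR and efflux list, to which Abca1 belongs, held 12 tested genes of 16. With limma 0 passed in either strain, where 8.06% of all probe sets passed in SS and 5.86% in BN lungs. At an unadjusted p under 0.05 there were 3 in SS (1 higher, 2 lower) and 3 in BN lungs (all lower). The shares of all probe sets with such a p were 25.3% and 19.9%. In BN lungs 11 of 12 values were negative, with a median of -0.26 against -0.03 over all genes, and in SS lungs 7 of 12, with a median of -0.05. By array, the list's median deviation from each gene's mean was -0.20, -0.28 and 0.02 in BN HTV lungs. In BN control lungs it was 0.17, 0.14 and 0.10. The genes share these arrays, so their signs are not separate evidence. In the mean of both strains 2 fell, where 15.8% of all probe sets passed, and the count was 0 to 6 in the 24 other settings. These were Nr1h3, the LXR alpha receptor, by 0.28 ± 0.09 (limma, adjusted p = 0.0477) and Rxrb, a partner of that receptor, by 0.36 ± 0.11 (adjusted p = 0.0362). Both calls were lost when single arrays were left out, Nr1h3 for 9 of the 12 at adjusted p up to 0.109 and Rxrb for 8 of the 12 at up to 0.0878. Nr1h3 had 158, 192 and 162 in SS HTV against 244, 223 and 189 in SS control lungs, and 150, 167 and 161 in BN HTV against 200, 205 and 167 in BN control lungs.

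Of 13 tested fatty acid synthesis genes, most of which SREBP drives, 1 rose with HTV in each strain, where 8.06% of all probe sets passed in SS and 5.86% in BN lungs. Lpin1, a phosphatidate phosphatase of triglyceride synthesis and a nuclear co-regulator, had 140, 151 and 136 in SS HTV against 74.0, 85.7 and 103 in SS control lungs, and 159, 187 and 181 in BN HTV against 122, 112 and 131 in BN control lungs. It rose by 0.62 ± 0.13 in SS lungs (limma, adjusted p = 0.0110) and by 0.48 ± 0.13 in BN lungs (adjusted p = 0.0448), with no overlap in either strain. The SS call held in each of 25 other settings, and the BN call was lost without any 1 of 10 of the 12 arrays, for example BN HTV 2, at 0.43 (adjusted p = 0.139). The list medians with HTV were -0.03 in SS and -0.12 in BN lungs.

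Between strains 3 of 12 uptake and 2 of 13 fatty acid genes passed in control lungs, against 12.3% of all probe sets, and 1 of 12 uptake and 1 of 12 LXR and efflux genes in HTV lungs, against 8.37%. Mylip was higher in SS than in BN control lungs by 0.48 ± 0.13 (limma, adjusted p = 0.0331), and Cd36, a fatty acid and lipoprotein scavenger receptor, by 0.60 ± 0.18 (adjusted p = 0.0428). Lrp1, a large endocytic receptor, was lower in SS lungs in both conditions, with differences of -0.32 ± 0.09 with HTV and -0.31 ± 0.09 in controls (adjusted p = 0.0449 and 0.0446). Abca7, a relative of Abca1, was lower in SS HTV lungs, with a difference of -0.37 ± 0.11 (adjusted p = 0.0493). In control lungs Scd, the stearoyl desaturase, was lower in SS, with a difference of -0.96 ± 0.29 (adjusted p = 0.0468), as was Lpin1 at -0.42 ± 0.13 (adjusted p = 0.0492). Each of these calls was lost when single arrays were left out, from 4 of the 12 arrays for Mylip to 11 of the 12 for Abca7 and Lpin1, and Cd36 was at 0.43 without SS control 3 (adjusted p = 0.121). All of them were also lost with the integrity covariate (limma, adjusted p of 0.0578 to 0.267). With it the Cd36 difference was larger, at 0.63. The others were smaller in size: Mylip 0.44, Lrp1 -0.30 with HTV and -0.29 in controls, Abca7 -0.25, Scd -0.71 and Lpin1 -0.36. Fibroblast, cardiac muscle, endothelial and T and NK cell markers also passed between the strains, in the numbers given above. For macrophages this was 1 of 6 markers in each condition, and for adipocytes 1 of 2 in HTV lungs alone. Liver markers went both ways in control lungs, with 2 higher and 1 lower in SS. The part of these cell types in the strain differences was not tested.

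Genes that tracked the members over the 12 arrays were named as the 5 of 10548 with the highest r. With the mean of Sqle and Cyp51 these were Nme1, Tmed9, Lsm4, Palmd and Utp14a, at r = 0.90 to 0.91. With the array pair farthest from the median left out, BN HTV 2 and SS control 1, Palmd kept 0.87 and the others had 0.47 to 0.66. With Abca1 1382431_at they were Ppfibp1, Postn, Reck, Bbs2 and Ldb1, at r = 0.90 to 0.93, and without BN HTV 2 and BN HTV 1 Postn kept 0.82 and the others had 0.22 to 0.52. These genes were picked as the highest of many and share the arrays' strain and HTV differences.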

How the data were processed

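Right-lung RNA of 12 rats was measured on Affymetrix rat arrays, 3 arrays in each of 4 groups taken from the labels. The deposited values are linear intensity per probe set, made with MAS5 per the submitters' processing notes; no version is given in the sources used here. Trimmed by 2% at each end, every array had a mean of 150, which was taken as the authors' scaling, and no further normalization was applied. Per the labels' protocols, 6 µg of Trizol-extracted total RNA was labelled with biotin. Animal numbers in the labels differ between arrays, so p-values reflect the spread between animals.

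Genes were named from the platform annotation where it gave 1 gene. The 57 control probe sets were left out, and probe sets with a mean intensity at or above the 40th percentile, 43.6, were kept, the filter including all groups. The log2(intensity + 16) values were fitted using limma 3.58.1 (R 4.3.3), moderated with a trend on intensity and 8 residual degrees of freedom, with Benjamini-Hochberg adjustment over all kept probe sets for each of 6 comparisons. The procedure was also run on simulated data with independent errors and no outlying array, a simpler setting than these arrays. Members, lists, markers and the rule for named genes were chosen with earlier results of these data known. The rule names every member probe set, up to 6 passing genes of each list in each comparison, the 5 genes most like each of 2 anchors, and marker genes; some genes it covers are not reported here. A list gene is represented by its brightest kept probe set. Alternatives were pseudocounts of 1 and 64, no filter or the 60th percentile, quantile normalization, median centring, no trend, array weights, only the arrays compared, the beta-actin ratio as covariate, averaging all kept probe sets of each gene, each array left out, and SS control 3 left out with BN HTV 3. A filter on mean log2 values and leaving out SS control 3 with BN HTV 2 were added after seeing the data.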

Additional observations from a re-analysis of the deposited data

How the results depend on the processing

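Calls on the 13 probe sets were few and near the threshold, so their number moved with the setting. No probe set passed for HTV in SS lungs or for the difference between HTV effects under any setting. For SS minus BN in HTV lungs 1 passed, and the number was 0 with no filter, median centring, no trend, only the arrays compared or the beta-actin covariate, 4 without SS control 3 and BN HTV 3, 2 without SS control 3 and BN HTV 2, and 0 to 1 with 1 array left out. For SS minus BN in control lungs 1 passed, and the number was 0 with no filter or only the arrays compared, 2 with quantile normalization, 3 with array weights, 0 without either pair and 0 to 2 with 1 array left out. In the mean of both strains 0 passed, and the number was 1 with quantile normalization or array weights, 4 and 1 without the pairs and 0 to 3 with 1 array left out, where Cyp51 and Abca1 entered. For HTV in BN lungs 0 passed, 3 without SS control 3 and BN HTV 3, and 0 to 2 with 1 array left out.

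Signs turned only for differences far from passing, and the cause was not tested. For HTV in BN lungs Insig2 (-0.02) was 0.020 with quantile normalization, 0.010 with median centring, 0.0092 with array weights, 0.049 without SS control 3 and BN HTV 3, and -0.077 to 0.070 with 1 array left out. Srebf2 (0.05) was -0.021 with quantile normalization, -0.0034 with array weights, -0.0035 without SS control 3 and BN HTV 2, and -0.027 to 0.12 with 1 array left out. Sqle (0.12) was -0.13 without SS control 3 and BN HTV 2, and -0.13 to 0.30 with 1 array left out. For HTV in SS lungs Insig2 (-0.06) was 0.031 and Srebf1 (0.16) was -0.044 without either pair, and -0.16 to 0.077 and -0.044 to 0.29 with 1 array left out. In the mean of both strains, array weights gave 0.0081 for Insig1 and 0.0018 for Insig2, leaving out SS control 3 and BN HTV 3 gave 0.077 for Sqle, 0.098 for Insig1 and 0.040 for Insig2, and 1 array left out gave -0.21 to 0.0089 for Sqle, -0.15 to 0.054 for Insig1, -0.092 to 0.028 for Insig2 and -0.15 to 0.034 for Srebf1. For SS minus BN in control lungs Sqle (-0.02) was 0.075 and Abca1 (-0.02) 0.079 with median centring, and 0.075 and 0.030 with the covariate; Insig1 (0.04) was -0.085 with array weights and -0.15 without either pair; 1 array left out gave -0.16 to 0.21, -0.073 to 0.046 and -0.15 to 0.17 for these 3. For the difference between HTV effects Insig2 (-0.04) was 0.034 with the mean over its probe sets, 0.089 without SS control 3 and BN HTV 2, and -0.14 to 0.097 with 1 array left out, and Cyp51 (-0.38) was 0.018 without SS control 3 and BN HTV 2.

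No paired analysis was possible because the labels give every animal a number of its own and tie no animal of one group to an animal of another; numbers 1 to 3 only name the arrays of a group. Without detection calls, how far a single dim value lies above background is not known here.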
